A study of Homo sapiens with 15 samples.

Results

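Triglyceride synthesis and the CIDE lipid droplet proteins were described from 10 genes, GPAM, AGPAT2, LPIN1, LPIN2, MOGAT2, MOGAT3, DGAT1, DGAT2, CIDEB and CIDEC, out of 60557 genes that all 15 count files share. The genes were chosen by name, with earlier results of these data known, so counts of lower members are a description only. Each symbol was matched to 1 Ensembl identifier, and all 10 were found in every file. The libraries came from polyadenylated RNA of Caco-2 monolayers, a line from a human colon tumour that takes on features of absorptive enterocytes at confluence. Of the 3 groups with 5 libraries each, 1 was left unexposed (control), and the others received dishwasher rinse aid for 24 h at a dilution of 1:10000 or 1:40000, so the 1:10000 solution was 4 times as concentrated. All groups share 1 cell line, and the labels leave unsaid whether replicates were grown separately. Each p-value therefore covers the spread among these libraries alone, which may be technical.

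A difference of sources runs through every comparison with control. Per the file headers, the control counts came from RNA STAR alignments and all rinse aid counts from HISAT2 alignments, and the files list 60649 and 61544 genes, so in those comparisons exposure cannot be told apart from the aligner and gene models used. The comparison of 1:10000 with 1:40000 shares the aligner and the gene list. Control libraries totalled 4333226 to 14230853 counts, the 1:10000 libraries 5489425 to 9555632, and the 1:40000 libraries 2551839 (replicate 2) to 172092447 (replicate 1). The share of mitochondrial ribosomal RNA was highest at 1:10000 (3.11 to 3.83%, against 0.626 to 1.24% at 1:40000 and 0.216 to 0.349% without exposure), and its part in the results was not tested. Of 10 enterocyte markers, 7 averaged over 1 CPM (normalised counts relative to library size) in the controls, CDX1, FABP2 and KRT20 were at or near 0, and the markers' summed level was 2008 to 2276 CPM at 1:10000, 2485 to 2595 at 1:40000 and 2592 to 2851 in control. Of the 7 tested, 0 were called higher and 5 lower at 1:10000 against control (median log2 fold change -0.68), and 0 and 4 between the dilutions. At 1:40000 against control 1 was higher (CDH17) and 3 lower. Of all tested genes 34.8% were higher and 36.2% lower at 1:10000 against control, and 28.3% and 29% between the dilutions. At 1:40000 against control these shares were 26.1% and 26%. CDHR5, lower in both comparisons with control (log2 fold change -8.89 at 1:10000 and -6.69 at 1:40000), has 9 transcripts outside the primary genome assembly. Hepatocyte markers summed to 348 to 536 CPM at 1:10000, 535 to 686 at 1:40000 and 893 to 1476 in control, and their part in the results was not tested. The adipocyte markers, which include PLIN1 and CIDEA, summed to at most 0.392 CPM in any library, and in bulk RNA fewer cells of a type and less RNA per cell cannot be told apart.

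Triglyceride is built on the membrane of the endoplasmic reticulum. In the glycerol phosphate route GPAM, a mitochondrial acyltransferase, attaches a fatty acid to glycerol 3-phosphate, AGPAT2 attaches another to make phosphatidic acid, and the lipins LPIN1 and LPIN2 remove the phosphate to give diacylglycerol. In the monoacylglycerol route, which enterocytes use to rebuild dietary fat, MOGAT2 and MOGAT3 make diacylglycerol from absorbed monoacylglycerol. Both routes end with DGAT1 or DGAT2, unrelated enzymes that add the last fatty acid. CIDEC enlarges lipid droplets by passing lipid from smaller to larger ones, and CIDEB takes part in loading lipid onto lipoproteins in liver and intestine.

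RefSeq windows before the start of transcription (build GRCh38.p14) were used for 7 of the 10 members, 12 in all, to show what lies before genes that fell and genes that did not pass. DGAT1 was left out of the search, and DGAT2 and MOGAT2 had no entry. The windows therefore do not cover DGAT1 and DGAT2, which also fell. The 250 bases before the start are printed 5′ to 3′ for GPAM (chr10:112183766-112184015, minus strand, a start inside the longer GENCODE gene) and AGPAT2 (chr9:136687458-136687707, minus strand), whose RNA was lower at 1:10000, and for LPIN1 (chr2:11677294-11677543, plus strand, 1 of 3 listed starts) and MOGAT3 (chr7:101201037-101201286, minus strand), whose RNA did not pass the test. Capitals mark every match to 7 motifs searched on both strands.
GPAM: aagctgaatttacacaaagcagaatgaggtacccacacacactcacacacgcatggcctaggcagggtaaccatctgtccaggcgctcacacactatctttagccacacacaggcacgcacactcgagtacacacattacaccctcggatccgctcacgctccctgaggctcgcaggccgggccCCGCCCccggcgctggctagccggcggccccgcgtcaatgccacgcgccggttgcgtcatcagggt
AGPAT2: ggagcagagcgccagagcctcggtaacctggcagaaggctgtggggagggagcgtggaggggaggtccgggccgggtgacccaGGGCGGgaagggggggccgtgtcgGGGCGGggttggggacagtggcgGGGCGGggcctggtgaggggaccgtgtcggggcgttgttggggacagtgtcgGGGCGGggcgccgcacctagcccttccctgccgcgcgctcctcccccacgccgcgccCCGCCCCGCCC
LPIN1: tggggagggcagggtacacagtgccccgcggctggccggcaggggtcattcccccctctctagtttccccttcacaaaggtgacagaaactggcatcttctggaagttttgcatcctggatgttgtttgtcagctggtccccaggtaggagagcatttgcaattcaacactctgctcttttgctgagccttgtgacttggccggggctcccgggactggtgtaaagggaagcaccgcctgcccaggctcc
MOGAT3: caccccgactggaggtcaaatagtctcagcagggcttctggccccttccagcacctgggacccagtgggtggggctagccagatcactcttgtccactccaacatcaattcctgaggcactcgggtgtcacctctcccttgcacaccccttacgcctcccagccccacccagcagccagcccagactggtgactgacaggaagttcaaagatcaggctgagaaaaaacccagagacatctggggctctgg
The GC box, GGGCGG, occurred at 6 positions before AGPAT2 and at 1 before GPAM. At the window's end 2 of the AGPAT2 matches overlap by 1 base, so they are not separate boxes. The GC box occurs in 42.5% of all 34943 RefSeq windows of this length. The other motifs were the CCAAT box (CCAAT, in 32% of windows), the E box (CACGTG, 6.32%), the ATF4 composite element (TGATGNAA, 3.15%), the cAMP response element (TGACGTCA, 1.63%), the core of the sterol response element (TCACNCCAC, 0.881%) and the HNF4 motif (CAAAGTCCA, 0.326%), and none of their letters stood in these 4 windows. G and C made up 62% of the GPAM window, 77.6% of AGPAT2, 58.4% of LPIN1 and 59.2% of MOGAT3. In the windows not printed, the GC box occurred 4 times before 1 of the other LPIN1 starts and 1 time before the third. It occurred 4 times before 1 LPIN2 start and 1 time before 1 CIDEC start, so windows of genes that did not pass held it too. Before 1 start of CIDEB, which was lower in both comparisons with control, it occurred 2 times. There the sterol response element core stood before 1 of the CIDEC starts, the HNF4 motif before 1 of the CIDEB starts and the E box before 1 of the LPIN2 starts. These matches describe the letters and no binding was measured.

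At 1:10000 the members GPAM, AGPAT2, DGAT1 and DGAT2 were lower in both comparisons, and LPIN1 and LPIN2 were not called. Against control, 5 of 9 tested members passed as lower (DGAT1, DGAT2, GPAM, AGPAT2 and CIDEB) and 0 as higher, where a call is an adjusted p under 0.05 in the quasi-likelihood F test of edgeR, adjusted by Benjamini-Hochberg over all 13157 genes tested. Of all tested genes, 36.2% were called lower and 34.8% higher in this comparison. In those 5 members each 1:10000 library lay below each control, as in 29% of all genes. The median log2 fold change was -0.38 over the 9 members and -0.02 over all tested genes. MOGAT2 did not pass the filter on low counts, so these values cover 9 of 10 members. Against 1:40000, where the pipeline is shared, 4 of 9 were lower at 1:10000 (DGAT1, DGAT2, GPAM and AGPAT2) and 0 higher, beside 29% lower and 28.3% higher among all genes, with a median of -0.37 against -0.007. The libraries of these 4 did not overlap, as in 19.8% of all genes. At 1:40000 against control, 1 of 9 was lower (CIDEB) and 0 higher, beside 26% and 26.1%, with a median of -0.02 against -0.002, and in CIDEB, as in 18.1% of all genes, each exposed library lay below each control. The comparisons with control share the control libraries.

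**Figure D1:**
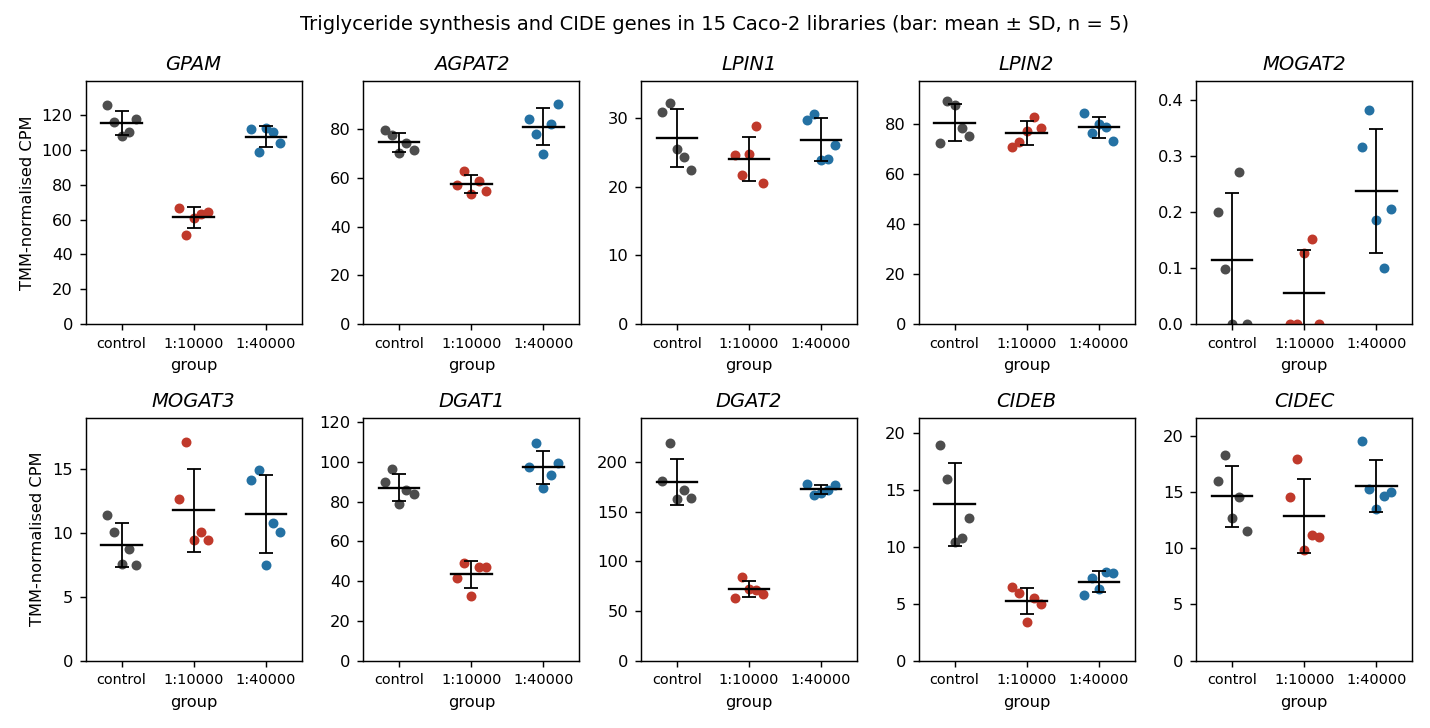
Normalised counts in CPM (vertical axes, each from 0) of the 10 members in each library, by group (horizontal axis); points are libraries in replicate order and bars are mean ± SD (n = 5). DGAT1, DGAT2, GPAM and AGPAT2 have all 5 libraries at 1:10000 below every control and every 1:40000 library.

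DGAT2, the enzyme that esterifies newly made fatty acids in particular, had the highest normalised count of the members in control and at 1:40000. Its normalised counts (scaled by trimmed mean of M-values, TMM, and given in CPM) were 181, 219, 163, 172 and 164 in control replicates 1 to 5. They were 63.2, 84.9, 72.8, 71.7 and 67.2 at 1:10000 and 178, 167, 169, 172 and 177 at 1:40000. The 1:10000 libraries lay below all others, and the 1:40000 libraries lay within the range of the controls. The mean was 180 ± 23.0 in control (mean ± SD, n = 5), 71.9 ± 8.16 at 1:10000 and 173 ± 4.74 at 1:40000. The log2 fold change at 1:10000 was -1.33 ± 0.08 (± SE) against control (edgeR adjusted p = 1.9e-13) and -1.27 ± 0.08 against 1:40000 (edgeR adjusted p = 2.87e-12), that is 2.51-fold and 2.41-fold lower. At 1:40000 against control it was -0.06 ± 0.08 (95% interval -0.21 to 0.09, edgeR adjusted p = 0.536). DGAT2 (ENSG00000062282) is a protein-coding gene on the plus strand of chromosome 11 from 75759512 to 75801535 in GENCODE 29 on GRCh38. Of the antisense genes that share exon bases with it, AP003031.1 held 7, 5 and 27 counts in control, 1:10000 and 1:40000 and AP001922.1 held 0, so each group's DGAT2 counts were far above theirs.

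DGAT1, the acyltransferase that dominates fat resynthesis in the human intestine, was also lower at 1:10000. Its levels were 89.9, 96.5, 79.0, 85.8 and 84.0 CPM in the controls, 41.5, 49.0, 32.5, 47.3 and 46.9 at 1:10000, and 97.1, 109, 86.6, 93.5 and 99.4 at 1:40000. Again the highest 1:10000 library lay below the lowest of the other groups, and the control and 1:40000 ranges overlapped. The log2 fold change at 1:10000 was -1.01 ± 0.09 against control (edgeR adjusted p = 4e-10) and -1.16 ± 0.09 against 1:40000 (edgeR adjusted p = 1.27e-10). At 1:40000 against control it was 0.14 ± 0.09 (95% interval -0.02 to 0.31, edgeR adjusted p = 0.164). This last value passed as higher when no gene was filtered for low counts (0.22, edgeR adjusted p = 0.046). DGAT1 (ENSG00000185000) lies on the minus strand of chromosome 8 from 144314584 to 144326910. GENCODE 29 also lists 8 of its transcripts outside the primary assembly. Its exons share 444 bases with AC233992.1 and 7 with MIR6848 on the same strand, and neither gene held counts in any library. What this overlap does to the DGAT1 counts was not tested. DGAT1 exons also share 139 bases with HSF1 on the opposite strand. HSF1, the heat shock transcription factor, was at 50.7 ± 3.23 CPM in control, 109 ± 4.47 at 1:10000 and 75.4 ± 7.99 at 1:40000, the opposite direction, and the strand setting of the counting is not given in the sources used here.

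GPAM, which catalyses the first step of the glycerol phosphate route, fell 1.88-fold against control and 1.76-fold between the dilutions. It stood at 126, 116, 108, 111 and 118 CPM in the controls, 66.5, 51.3, 61.2, 63.2 and 64.1 at 1:10000 and 112, 98.9, 112, 110.4 and 104 at 1:40000. No 1:10000 library reached the other groups, which overlapped each other. The log2 fold change at 1:10000 was -0.91 ± 0.07 against control (edgeR adjusted p = 1.9e-11) and -0.82 ± 0.07 against 1:40000 (edgeR adjusted p = 4.81e-10). At 1:40000 against control it was -0.09 ± 0.07 (95% interval -0.22 to 0.04, edgeR adjusted p = 0.248). GPAM (ENSG00000119927) lies on the minus strand of chromosome 10 from 112149864 to 112215377, and no other GENCODE 29 gene shares its exons.

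AGPAT2, whose loss causes a congenital lack of body fat, fell less. Its levels were 79.7, 77.5, 70.3, 74.2 and 71.6 CPM in the controls, 57.1, 62.9, 53.3, 58.9 and 54.8 at 1:10000 and 84.4, 77.9, 70.0, 82.4 and 90.6 at 1:40000. The groups again did not overlap at 1:10000, though the gap to the nearest library of another group was small. The log2 fold change at 1:10000 was -0.38 ± 0.07 against control (edgeR adjusted p = 6.13e-05) and -0.50 ± 0.07 against 1:40000 (edgeR adjusted p = 2.57e-06), and 0.12 ± 0.07 at 1:40000 against control (95% interval -0.02 to 0.26, edgeR adjusted p = 0.168). AGPAT2 (ENSG00000169692) lies on the minus strand of chromosome 9 from 136673143 to 136687423.

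LPIN1 and LPIN2, phosphatases that also act as transcriptional coactivators in the nucleus, were not called in any comparison. LPIN1 was at 22.5 to 32.2 CPM in control (median 25.5), 20.5 to 28.8 at 1:10000 (median 24.6) and 23.9 to 30.6 at 1:40000 (median 26.0). LPIN2 was at 72.5 to 89.3 (median 78.7), 70.8 to 82.8 (median 77.4) and 73.6 to 84.6 (median 79.0) in the same order. All 3 groups overlapped for both genes. At 1:10000 against control the log2 fold change of LPIN2 was -0.08 ± 0.07 (95% interval -0.22 to 0.06, edgeR adjusted p = 0.343) and that of LPIN1 -0.16 ± 0.11 (95% interval -0.39 to 0.06, edgeR adjusted p = 0.207). Against 1:40000 they were -0.05 ± 0.07 (95% interval -0.19 to 0.09) and -0.14 ± 0.11 (95% interval -0.36 to 0.08), so the intervals of both genes leave out a fall as large as that of GPAM. LPIN1 (ENSG00000134324) lies on the plus strand of chromosome 2 from 11677595 to 11827409 and LPIN2 (ENSG00000101577) on the minus strand of chromosome 18 from 2916994 to 3013315.

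**Figure D2:**
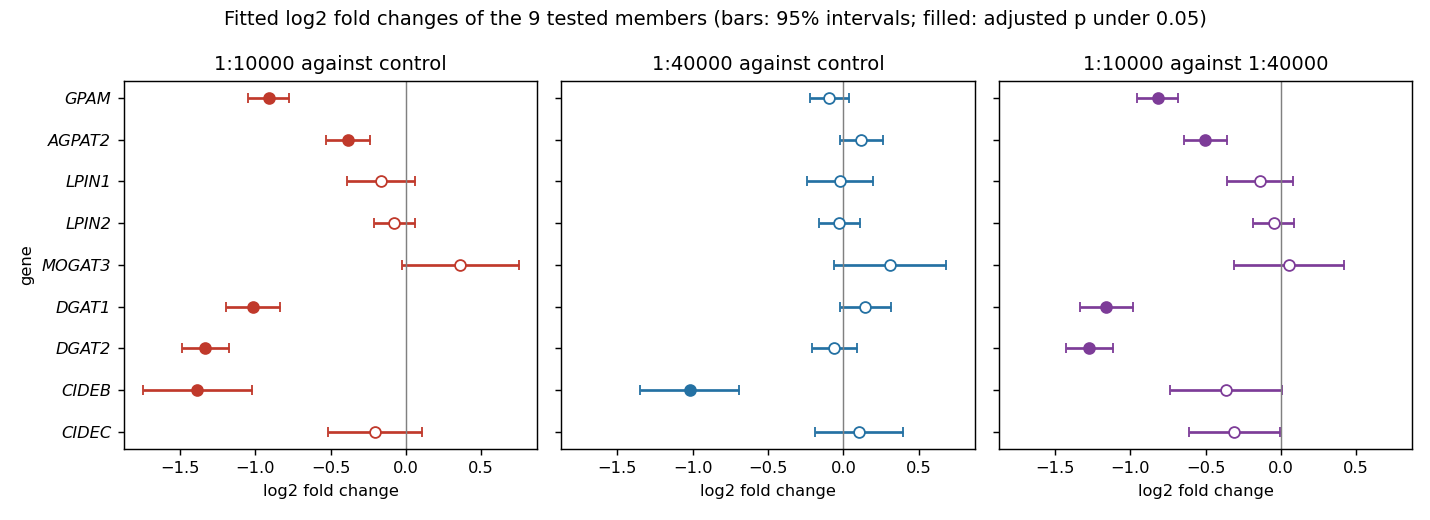
Log2 fold changes (horizontal axis) of the 9 tested members (vertical axis) in the 3 comparisons, with 95% intervals; filled points have an edgeR adjusted p under 0.05. DGAT1, DGAT2, GPAM and AGPAT2 lie left of 0 in both comparisons of 1:10000 and near 0 at 1:40000, and CIDEB lies left of 0 in both comparisons with control.

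In the monoacylglycerol route MOGAT2 was little expressed, and MOGAT3 was not near 0. MOGAT2, the main intestinal monoacylglycerol acyltransferase, had 6 counts over the 5 controls, 2 at 1:10000 and 64 at 1:40000, of which replicate 1, the deepest library, held 55. Pooled over each group this is 0.142 CPM in control (95% exact Poisson interval 0.0522 to 0.310), 0.0582 at 1:10000 (0.00704 to 0.210) and 0.287 at 1:40000 (0.221 to 0.367), and these intervals cover counting error only. Without 1:40000 replicate 1 that group held 9 counts, at 0.183 CPM (0.0835 to 0.347), an interval that overlaps both others. Without control replicate 4 the control value was 0.0728, and without 1:10000 replicate 3 or 4 the 1:10000 value was 0.0378 or 0.0359. No test was made on so few counts. MOGAT3, a paralogue active in the human gut, was detected in every library at 7.49 to 11.4 CPM in control (median 8.70), 9.46 to 17.1 at 1:10000 (median 10.1) and 7.49 to 14.9 at 1:40000 (median 10.8). The groups overlapped, and replicates 1 and 2 were the highest libraries of each group. Its log2 fold change was 0.36 ± 0.20 at 1:10000 against control (95% interval -0.03 to 0.75, edgeR adjusted p = 0.106), 0.31 ± 0.19 at 1:40000 against control (edgeR adjusted p = 0.176) and 0.05 ± 0.19 between the dilutions (edgeR adjusted p = 0.833). The first of these passed without the deepest and the shallowest library (0.38, edgeR adjusted p = 0.0469) and when only the groups compared were fitted (0.37, edgeR adjusted p = 0.0468), and the value at 1:40000 passed without 1:40000 replicate 3 (0.45, edgeR adjusted p = 0.0314). MOGAT2 (ENSG00000166391) lies on chromosome 11 from 75717819 to 75732958, upstream of DGAT2 on the same strand, and MOGAT3 (ENSG00000106384) on the minus strand of chromosome 7 from 101195007 to 101201038.

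CIDEB, the CIDE protein of liver and small intestine, was the 1 member lower at both dilutions. It stood at 19.0, 16.0, 10.4, 10.8 and 12.5 CPM in the controls, 6.44, 5.90, 3.40, 5.49 and 4.97 at 1:10000 and 5.75, 7.26, 6.26, 7.75 and 7.68 at 1:40000. Every control library lay above every rinse aid library, and the dilutions overlapped each other. The log2 fold change against control was -1.39 ± 0.18 at 1:10000 (edgeR adjusted p = 2.94e-07) and -1.02 ± 0.17 at 1:40000 (edgeR adjusted p = 1.77e-05), and -0.37 ± 0.19 between the dilutions (95% interval -0.74 to 0.004, edgeR adjusted p = 0.101). The depth was low, with 27 to 55 counts in each 1:10000 library and 19 in 1:40000 replicate 2. CIDEB (ENSG00000136305) lies on the minus strand of chromosome 14 from 24305096 to 24311430, and its model has version 11 in the control files and 12 in the rinse aid files, so its counts with and without exposure come from different models. Its exons share 1954 bases with NOP9 and 1276 with LTB4R2 on the opposite strand, and GENCODE 29 lists 6 of its transcripts outside the primary assembly. NOP9 was at 57.1 ± 5.76 CPM in control, 43.9 ± 2.54 at 1:10000 and 47.2 ± 3.96 at 1:40000, and LTB4R2 at 0.734 ± 0.338, 0.251 ± 0.168 and 0.685 ± 0.211; their part in the CIDEB values was not tested.

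CIDEC, best known from fat cells, was present without the adipocyte markers. It was at 11.5 to 18.3 CPM in control (mean 14.6), 9.84 to 17.9 at 1:10000 (mean 12.9) and 13.5 to 19.5 at 1:40000 (mean 15.6), with an SD of at most 3.31 in each group, and all groups overlapped. No comparison passed, with log2 fold changes of -0.21 ± 0.16 at 1:10000 against control (edgeR adjusted p = 0.252), 0.10 ± 0.15 at 1:40000 against control (edgeR adjusted p = 0.591) and -0.31 ± 0.15 between the dilutions (95% interval -0.61 to -0.01, edgeR adjusted p = 0.0899). The difference between the dilutions passed as lower at 1:10000 under upper-quartile scaling (-0.36, edgeR adjusted p = 0.0491) and without 1:10000 replicate 2 (-0.42, edgeR adjusted p = 0.0216). CIDEC (ENSG00000187288) lies on the minus strand of chromosome 3 from 9866711 to 9880254. A transcribed pseudogene copy, CIDECP, was counted separately and rose from 7.52 ± 0.90 CPM in control to 20.7 ± 2.89 at 1:10000, with 10.4 ± 1.67 at 1:40000. The log2 fold change of CIDECP was 1.44 ± 0.13 at 1:10000 against control (edgeR adjusted p = 5.81e-10) and 0.97 ± 0.12 against 1:40000 (edgeR adjusted p = 3.35e-07), opposite in sign to that of CIDEC. How reads were divided between the copies is not given in the sources used here, so the values of both are uncertain.

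Levels were ordered between genes per kilobase of the GENCODE 29 exons joined over transcripts, in CPM per kb. In control AGPAT2 was highest at 41.5 ± 2.19 (mean ± SD, n = 5), followed by DGAT2 at 22.8 ± 2.91 and DGAT1 at 21.1 ± 1.60, LPIN2 at 11.9 ± 1.10 and GPAM at 11.8 ± 0.71, CIDEC at 7.58 ± 1.40, CIDEB at 4.30 ± 1.14, MOGAT3 at 3.71 ± 0.69, LPIN1 at 2.28 ± 0.36 and MOGAT2 at 0.0275 ± 0.0292. The libraries of DGAT2 and DGAT1, of LPIN2 and GPAM, and of CIDEB and MOGAT3 overlapped, and other neighbours in this order did not. At 1:10000 LPIN2, at 11.3 ± 0.70, stood above DGAT1 at 10.5 ± 1.63 and DGAT2 at 9.10 ± 1.03, with overlap between each pair of neighbours, and AGPAT2 stayed highest at 31.9 ± 2.07. At 1:40000 the order began with AGPAT2 at 45.1 ± 4.26, DGAT1 at 23.5 ± 2.01 and DGAT2 at 21.8 ± 0.60, of which DGAT1 and DGAT2 overlapped. Summed over the 10 members, the level was 345 to 384 CPM at 1:10000, 570 to 626 at 1:40000 and 564 to 675 in control, so that the 1:10000 libraries stood apart and the others overlapped.

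Ratios of 2 members within a library do not depend on scaling, and 5 pairs were compared after their values had been seen, in 15 exact two-sided permutation tests over libraries adjusted together by Benjamini-Hochberg (smallest p possible 0.00794). GPAM to AGPAT2, the enzymes of consecutive steps, was 1.55 ± 0.06 in control, 1.07 ± 0.15 at 1:10000 and 1.34 ± 0.17 at 1:40000 (mean ± SD, n = 5). At 1:10000 against control the ranges of this ratio did not overlap (exact permutation p = 0.00794, adjusted 0.0298), and between the dilutions they overlapped (exact permutation p = 0.0238, adjusted 0.0661). DGAT2 to DGAT1 was 2.06 ± 0.12, 1.69 ± 0.33 and 1.79 ± 0.16 in control, 1:10000 and 1:40000. It was lower at 1:40000 than in control (exact permutation p = 0.00794, adjusted 0.0298), a call that ended without any 1 of the controls or 1:40000 replicate 2 (adjusted 0.0595), and at 1:10000 the adjusted value missed the threshold (exact permutation p = 0.0397, adjusted 0.0661). Between the dilutions, which share a pipeline, the DGAT2 to DGAT1 ratio gave an exact permutation p = 0.444 (adjusted 0.595). LPIN2 to LPIN1 was 3.03 ± 0.46, 3.22 ± 0.40 and 2.96 ± 0.35, with the lowest exact permutation p at 0.302. CIDEC to CIDEB rose from 1.09 ± 0.21 in control to 2.48 ± 0.45 at 1:10000 and 2.29 ± 0.62 at 1:40000 (exact permutation p = 0.00794 for both, adjusted 0.0298), and between the dilutions, counted with the same CIDEB model, its log2 difference was 0.13 (exact permutation p = 0.516, adjusted 0.595). The remaining pair, DGAT2 to GPAM, passed in no comparison after adjustment (lowest adjusted value 0.0661).

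**Figure D3:**
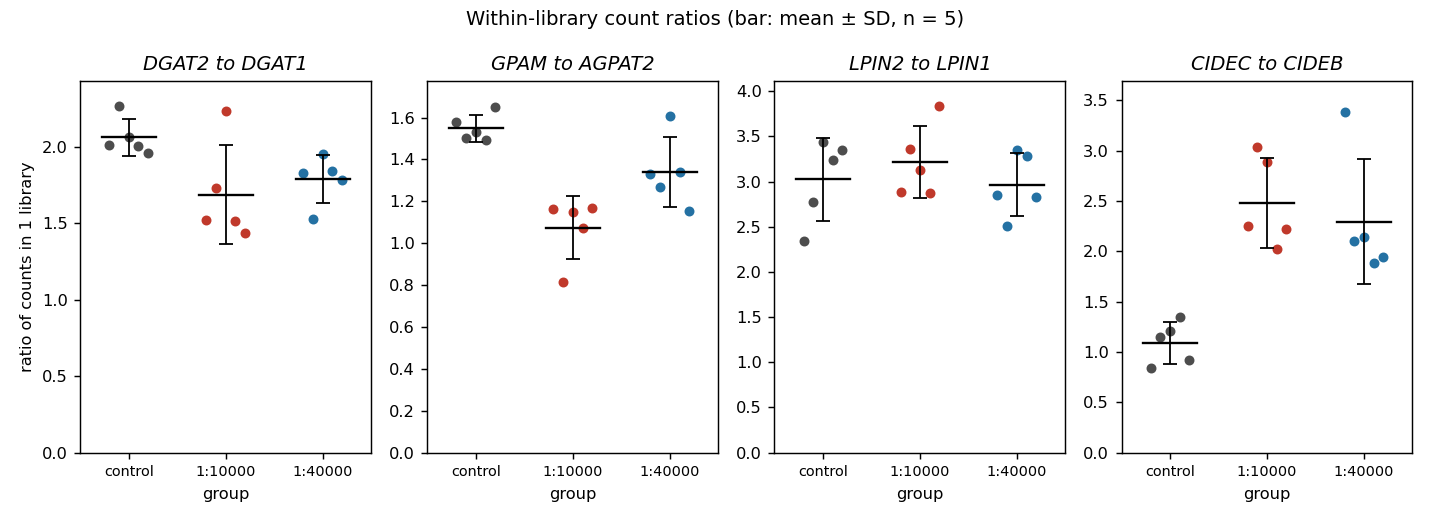
For 4 of the pairs, ratio of the counts of 2 genes in the same library (vertical axes, from 0) by group (horizontal axis); points are libraries and bars are mean ± SD (n = 5). The 1:10000 libraries lie below all controls for GPAM to AGPAT2, LPIN2 to LPIN1 overlaps in all groups, and CIDEC to CIDEB separates the controls from both rinse aid groups.

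The other isoenzymes of the acylation steps did not all move with the members. Of 11 listed, 8 were tested, and at 1:10000 against control 1 was higher and 5 lower (median -0.50). Both at 1:40000 against control and between the dilutions 1 was higher and 4 lower. Over all tested genes 34.8% were higher and 36.2% lower at 1:10000 against control, and 26.1% and 26% at 1:40000 against control. Between the dilutions these shares were 28.3% and 29%. GPAT3, an isoenzyme of GPAM in the endoplasmic reticulum, rose from 9.60 ± 2.45 CPM in control to 31.0 ± 5.66 at 1:10000, with 13.8 ± 1.68 at 1:40000. Its log2 fold change was 1.70 ± 0.15 against control (edgeR adjusted p = 3.96e-10) and 1.15 ± 0.14 between the dilutions (edgeR adjusted p = 1.94e-07), opposite in sign to GPAM. GPAT4, the other isoenzyme there, fell by 0.76 on the log2 scale at 1:10000 against control and by 0.28 between the dilutions. LPIN3, the remaining lipin, fell from 31.2 ± 2.28 to 3.93 ± 0.37 at 1:10000, with 11.9 ± 3.19 at 1:40000 (log2 fold change -2.99 ± 0.17 against control, edgeR adjusted p = 1.16e-13; -1.56 ± 0.18 between the dilutions, edgeR adjusted p = 9.9e-08). LPIN3 shares 617 exon bases with EMILIN3 on the opposite strand. AGPAT3 also fell, from 151 ± 7.75 to 82.0 ± 12.5 CPM at 1:10000 (-0.88 ± 0.08 against control, edgeR adjusted p = 1.65e-09; -0.80 ± 0.08 between the dilutions, edgeR adjusted p = 2.06e-08). AGPAT1 was at 26.8 ± 1.62 in control and at 5.75 ± 0.90 and 5.61 ± 1.31 at 1:10000 and 1:40000, so that the dilutions, which share an aligner, overlapped and the controls stood apart, and GENCODE 29 lists 48 of its transcripts outside the primary assembly. AGPAT1 also shares 1087 exon bases with PPT2-EGFL8 and 70 with EGFL8 on the opposite strand, and their part in its values was not tested. AGPAT5 was not called in any comparison (68.3 ± 5.92, 68.3 ± 3.72 and 71.9 ± 4.39 CPM), LCLAT1 was lower in both comparisons with control by 0.24 and 0.23 on the log2 scale, the latter call ending without a filter on low counts (-0.15, edgeR adjusted p = 0.178) and without control replicate 4 (-0.18, edgeR adjusted p = 0.0533), and AGPAT4 was called only between the dilutions, at -0.30 ± 0.13 (edgeR adjusted p = 0.0487), a call that ended under 4 other settings and when any of 10 libraries was left out, among them 1:10000 replicate 1 (-0.20, edgeR adjusted p = 0.186).

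**Figure D4:**
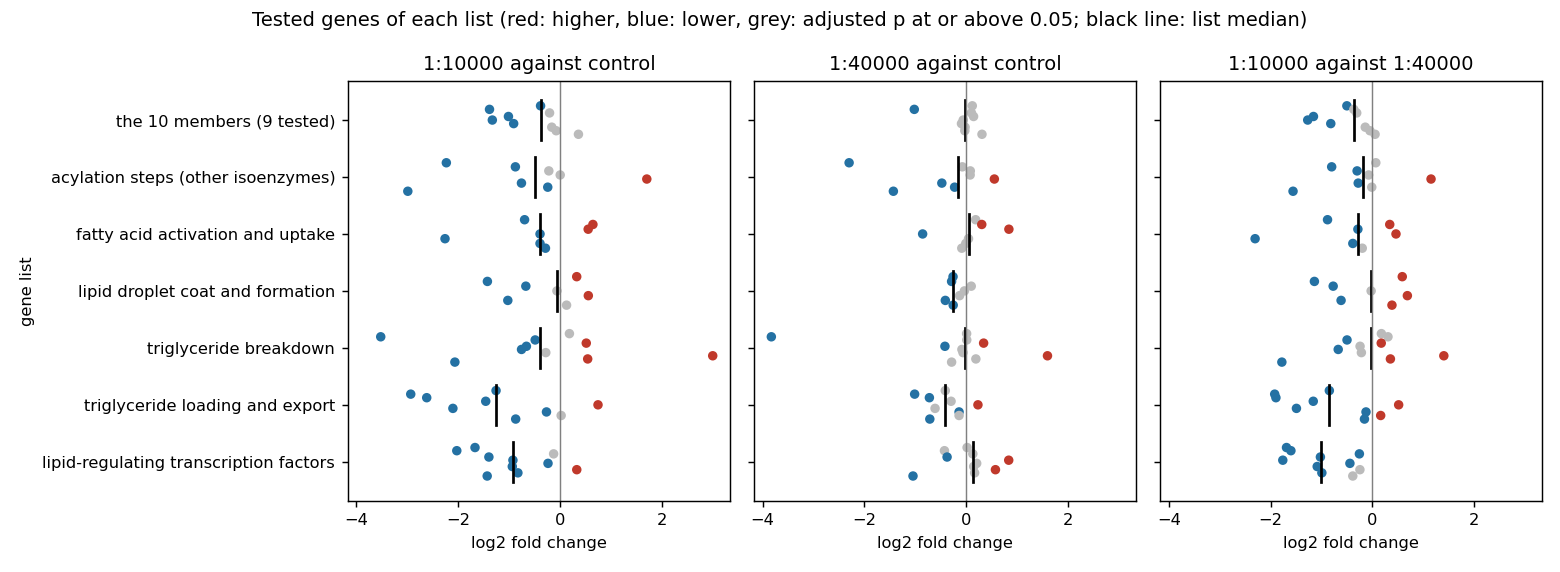
Log2 fold changes (horizontal axis) of every tested gene in the 10 members and in 6 lists of the surrounding pathway (vertical axis), by comparison; colour gives the call and the black line each list's median. Export genes and lipid-regulating factors lie mostly left of 0 in both comparisons of 1:10000, and droplet and breakdown genes lie on both sides.

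Of 67 listed genes around triglyceride synthesis, also chosen with earlier results of these data known, 51 were tested. At 1:10000 against control 10 were higher and 33 lower (64.7% lower, against 36.2% of all tested genes; median -0.66), between the dilutions 11 were higher and 29 lower (56.9%, against 29%; median -0.29), and at 1:40000 against control 8 were higher and 17 lower (33.3%, against 26%; median -0.09). Higher calls made up 34.8%, 28.3% and 26.1% of all tested genes in these comparisons, in the same order. Genes of fatty acid activation and uptake had 2 of 7 higher and 5 lower at 1:10000 against control, and 2 higher and 4 lower between the dilutions. In this list FABP1, the liver-type fatty acid binding protein, fell from 91.5 ± 11.4 to 19.2 ± 3.86 CPM at 1:10000, with 95.8 ± 13.8 at 1:40000, and ACSL3, an acyl-CoA synthetase of nascent droplets, rose from 362 ± 12.2 to 566 ± 66.4, with 448 ± 64.3. Droplet coat and formation genes had 2 of 7 higher and 3 lower at 1:10000 against control, and 3 and 3 between the dilutions. PLIN2, the droplet coat protein of most cells, rose from 46.5 ± 4.20 to 67.9 ± 3.54 and stood at 42.0 ± 2.58 at 1:40000 (0.69 ± 0.07 between the dilutions, edgeR adjusted p = 1.75e-08), and FITM2, which helps droplets bud, fell from 53.7 ± 7.33 to 20.1 ± 1.38, with 44.4 ± 1.80 at 1:40000.

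For the counts that follow, all tested genes had 34.8% higher and 36.2% lower at 1:10000 against control, and 28.3% and 29% between the dilutions. At 1:40000 against control these shares were 26.1% and 26%. Triglyceride breakdown had 3 of 10 higher and 5 lower at 1:10000 against control, and 3 and 3 between the dilutions. MGLL, which cleaves monoacylglycerol, rose from 6.08 ± 0.21 CPM in control to 49.2 ± 5.91 at 1:10000 and 18.2 ± 3.38 at 1:40000 (1.40 ± 0.11 between the dilutions, edgeR adjusted p = 1.74e-10), and PNPLA3, a droplet-bound lipase and acyltransferase, fell from 19.9 ± 3.74 to 4.87 ± 1.53, with 16.9 ± 3.12 at 1:40000. Loading and export onto lipoproteins had 1 of 9 higher and 7 lower at 1:10000 against control (median -1.26), and 2 higher and 7 lower between the dilutions (median -0.85). SURF4, a cargo receptor for lipoproteins leaving the endoplasmic reticulum, was at 687 ± 25.4, 376 ± 17.2 and 418 ± 27.5 CPM in control, 1:10000 and 1:40000, and MIA2, which helps bulky cargo leave it, at 81.8 ± 5.95, 137 ± 6.36 and 96.2 ± 6.68. Lipid-regulating transcription factors had 1 of 10 higher and 8 lower at 1:10000 against control (median -0.93), 0 higher and 8 lower between the dilutions (median -1.01), and 2 and 2 at 1:40000 against control (median 0.14). HNF4A, a regulator of intestinal and hepatic genes, fell from 572 ± 42.8 to 217 ± 16.4 CPM at 1:10000, with 440 ± 38.0 at 1:40000 (-1.02 ± 0.07 between the dilutions, edgeR adjusted p = 7.86e-12). PPARG, a receptor that drives fat storage genes, was higher in both comparisons with control (23.3 ± 3.77, 29.4 ± 3.23 and 34.8 ± 4.04 CPM). At 1:10000 against control the call ended without control replicate 5 (edgeR adjusted p = 0.0541). Between the dilutions PPARG was not called, at -0.25 ± 0.11 (edgeR adjusted p = 0.0541). That difference passed as lower at 1:10000 under upper-quartile scaling (-0.29, edgeR adjusted p = 0.0217), other settings and in 6 of 15 fits that left out 1 library. Gene models of HNF4A, MGLL and MIA2 changed version between the control and rinse aid files, and SURF4 has 9 transcripts outside the primary assembly.

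DGAT2 had the largest difference between the dilutions among the members, and its profile over the 15 libraries was compared with those of 11646 tested protein-coding genes. The closest by Pearson's r of log2 CPM were GALNT2 (0.99), TSPAN9 (0.99), AGT (0.99) and NPTXR (0.99), with Spearman's rho from 0.77 to 0.93. Mean levels in control, 1:10000 and 1:40000 were 154, 89.9 and 150 CPM for GALNT2 and 178, 26.4 and 139 for AGT, the angiotensin precursor, so the likeness lies in low levels at 1:10000. The 15 points share 3 groups and 2 pipelines, and r is a description only.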

How the data were processed

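Polyadenylated RNA from Caco-2 cells was sequenced in 15 libraries, 5 in each of 3 groups taken from the sample titles. The authors deposited raw counts per Ensembl gene; per the file headers, control reads were aligned with RNA STAR and rinse aid reads with HISAT2. STAR 2.7.9a, DESeq2 1.32.0, cutadapt, featureCounts and GRCh38 appear in the submitters' processing notes, with no role or order; annotation release and strand setting are not given in the sources used here.

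Files were joined by Ensembl identifier without version (60557 shared genes, 99.9733 to 99.9983% of each library's counts; 44 copies on the Y pseudoautosomal region were left out). Counts entered edgeR 4.0.16 in R 4.3.3 with TMM scaling and a filterByExpr filter over the 3 groups. Means of all groups were fitted together and 13157 genes tested with the quasi-likelihood F test (robust). SEs were derived from the F statistic and are approximate, and 95% intervals are normal. In data simulated for 1:10000 against control over 12935 genes, 99 of 100 changes of 1 and 54 of 100 of 0.5 on the log2 scale were recovered. Of the genes called there, 5.56% were false. The simulation gave every gene the same dispersion and changed only a few, well-counted genes. These shares therefore do not give the sensitivity in the real data, where far more genes were called. Alternatives were other scalings, DESeq2 1.42.0, other count filters, a replicate block, 2-group fits and leaving out libraries.

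The members and gene lists were chosen with earlier results of these data known. Named were all members, the tested acylation isoenzymes, the called gene with the smallest adjusted p per direction and list at 1:10000 against control, and the 4 genes most like DGAT2. Overlap partners and CIDECP were named after their values were seen. Coordinates, overlaps and exon lengths came from GENCODE 29 on GRCh38 and promoter sequences from RefSeq on GRCh38.p14. At 1:10000 against control the fibroblast markers gave 0 of 4 higher and 2 lower, and hepatocyte markers 0 of 7 and 5. Leukocyte markers gave 1 of 2 and 1 there. Of all tested genes 34.8% were higher and 36.2% lower in that comparison. Adipocyte markers had 0 of 8 tested.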

Additional observations from a re-analysis of the deposited data

How the results depend on the processing

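In the comparisons of 1:10000 with control and with 1:40000, DGAT1, DGAT2, GPAM and AGPAT2 were lower and called under each of 23 alternatives, as was CIDEB in both comparisons with control. The highest adjusted p was 0.000363, for AGPAT2 at 1:10000 against control. Members called higher at 1:10000 against control went from 0 to 1 (MOGAT3) with the replicate block, with only the groups compared and without the deepest and shallowest library. At 1:40000 against control they went from 0 to 1 under upper-quartile scaling (AGPAT2) and without a count filter (DGAT1), to 2 with the replicate block (DGAT1 and MOGAT3), and ranged from 0 to 2 when each library was left out (2, AGPAT2 and MOGAT3, without 1:40000 replicate 3). Counting only the 6 tested members with an unchanged model, no named pseudogene and no transcript off the primary assembly, chosen after seeing the data, 3 were lower at 1:10000 and 0 at 1:40000 against control, since DGAT1 and CIDEB drop out. Same-numbered libraries correlated above 0.1 in 6 of 15 pairs (from -0.05 to 0.28), and 7 matched their own number best. Whether the numbers pair the samples cannot be told from these values, and the main fit does not use them. With the block, the 5 members lower at 1:10000 against control stayed 5, and CIDEC passed between the dilutions (-0.34).

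Signs of uncalled values turned as follows; the cause was not tested. At 1:40000 against control LPIN1 and LPIN2 became 0.029 and 0.024 under upper-quartile scaling and 0.057 and 0.049 without a filter, where DGAT2 became 0.017. Without the deepest and shallowest library CIDEC became -0.043, FABP1 -0.0021 and AGPAT3 0.0018. Between the dilutions MOGAT3 became -0.024 and AGPAT1 -0.0096 without a filter, and LCLAT1 became 0.0029 with RLE factors, 0.0064 with DESeq2 and 0.023 without the deepest and shallowest library. Leaving out each library gave, at 1:40000 against control, ranges of -0.087 to 0.057 for LPIN1, -0.058 to 0.014 for LPIN2, -0.092 to 0.023 for DGAT2, -0.034 to 0.21 for CIDEC, -0.013 to 0.10 for FABP1 and -0.11 to 0.035 for the log2 ratio of LPIN2 to LPIN1. Ranges were -0.040 to 0.042 for AGPAT5 at 1:10000 against control, and between the dilutions -0.093 to 0.23 for MOGAT3, -0.051 to 0.020 for LCLAT1 and -0.0043 to 0.14 for AGPAT1. The DGAT2 to DGAT1 call at 1:40000 ended without any control library or 1:40000 replicate 2 (adjusted p = 0.0595). MOGAT2 held 0 to 5 counts in every library but 1:40000 replicate 1, too few for a test.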

Other observations

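Replicates 1 and 2 were the highest libraries of the controls for 7 of the 9 tested members, and the highest at 1:10000 and at 1:40000 for 3 of 9 each. MOGAT3 and CIDEC showed this in all 3 groups. The labels give no batch, and its part in these values was not tested.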
